A study of Mus musculus with 8 samples.

Results

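Short intergenic R-loop peaks were the autosomal union peaks that overlapped no annotated gene in the deposited table, were 2000 bp or less in length and had a mean score over 30 across the 6 S9.6 libraries. The rule found 3358 of 28265 union peaks. They came from 4214 short intergenic peaks on the autosomes, of which the other 856 had a mean score of 30 or less. DNA-RNA immunoprecipitation sequencing (DRIP-seq) had been carried out on cultured, proliferating mouse muscle stem cells (MuSCs), with 3 libraries per genotype. Ctrl cells carried the genotype Pax7CreERT/Suv4-20h1WT and Kmt5b sKO cells the genotype Pax7CreERT/Suv4-20h1KO, where Suv4-20h1 is another name of Kmt5b. Both genotypes therefore carried the tamoxifen-inducible Cre recombinase driven by Pax7, so that in Kmt5b sKO animals the floxed gene was lost in Pax7-expressing cells only. Mice were young adults of both sexes on a C57BL/6 background, and MuSCs were enriched from limb and trunk muscle with magnetic beads before culture. A legend of the supplement gives 3 mice for the R-loop peak comparison, and pooling of animals is not mentioned there.

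R-loops form where a transcript anneals to its template strand behind RNA polymerase and leaves the other DNA strand unpaired. They are best known from promoters, gene bodies and gene ends, but also form outside genes, for example at transcribed enhancers, at read-through transcripts downstream of genes and on transcribed repeats. The S9.6 antibody binds the RNA:DNA hybrid and recovers the DNA in it. Kmt5b adds the second methyl group to lysine 20 of histone H4, a mark spread over most of the genome. The comparison of the genotypes asked where hybrids accumulated without this enzyme.

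The sequences of 6 short intergenic peaks show what kind of DNA carried the signal. Each is the central 200 bases of its peak on the plus strand of GRCm38 (mm10), read from the RefSeq assembly. Capitals mark bases lying in a stretch of 32 bases that has at least 1 other exact copy in the assembly, within the same peak or elsewhere, and lower case marks single-copy bases. The first sequence has the highest mean score, the second the smallest adjusted p and the third the largest gain in Kmt5b sKO. The fourth has the largest gain among peaks with under 25% of sampled 32-base stretches copied. The fifth had the largest loss. The sixth had the largest loss among peaks with under 10% of such stretches copied and no overlap between the genotypes. With overlap, upeak-20828 had a larger loss at 3.57% copied.
upeak-15883, chr9:124257000-124257199: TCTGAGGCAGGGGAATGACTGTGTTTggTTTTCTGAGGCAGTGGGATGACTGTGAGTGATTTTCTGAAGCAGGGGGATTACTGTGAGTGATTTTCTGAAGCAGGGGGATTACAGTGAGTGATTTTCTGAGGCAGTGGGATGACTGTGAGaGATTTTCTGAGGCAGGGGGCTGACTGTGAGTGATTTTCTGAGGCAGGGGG
upeak-6950, chr4:118547900-118548099: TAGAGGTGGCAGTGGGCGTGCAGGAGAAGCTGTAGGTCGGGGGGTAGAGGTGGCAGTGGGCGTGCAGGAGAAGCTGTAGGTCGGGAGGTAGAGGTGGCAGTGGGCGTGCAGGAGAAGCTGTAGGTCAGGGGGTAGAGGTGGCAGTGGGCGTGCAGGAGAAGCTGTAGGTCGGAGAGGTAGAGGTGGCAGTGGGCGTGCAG
upeak-7838, chr5:14956200-14956399: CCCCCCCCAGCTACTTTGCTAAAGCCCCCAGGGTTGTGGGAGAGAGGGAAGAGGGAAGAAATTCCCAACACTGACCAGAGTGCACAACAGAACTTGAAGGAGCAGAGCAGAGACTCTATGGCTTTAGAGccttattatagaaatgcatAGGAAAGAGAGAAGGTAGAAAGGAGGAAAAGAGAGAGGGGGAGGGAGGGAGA
upeak-22541, chr14:112835100-112835299: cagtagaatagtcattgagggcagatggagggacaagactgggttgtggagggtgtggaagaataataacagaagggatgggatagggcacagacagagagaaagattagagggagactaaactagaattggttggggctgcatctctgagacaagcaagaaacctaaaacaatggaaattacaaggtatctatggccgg
upeak-13388, chr8:71819800-71819999: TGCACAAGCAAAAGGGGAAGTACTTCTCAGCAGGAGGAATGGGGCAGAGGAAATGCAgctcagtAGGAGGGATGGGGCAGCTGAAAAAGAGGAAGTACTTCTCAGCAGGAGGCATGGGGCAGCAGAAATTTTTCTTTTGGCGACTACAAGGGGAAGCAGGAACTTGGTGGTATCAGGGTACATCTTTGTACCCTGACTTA
upeak-11486, chr7:36774800-36774999: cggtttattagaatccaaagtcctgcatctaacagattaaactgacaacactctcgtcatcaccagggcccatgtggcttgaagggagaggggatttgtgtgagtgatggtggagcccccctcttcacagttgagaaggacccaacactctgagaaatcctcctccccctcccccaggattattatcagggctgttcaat

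The 6 stretches ranged from DNA with no other copy to DNA copied almost throughout. In the chr4 stretch all 200 bases were marked as copied, and in the chr9, chr8 and chr5 stretches 197, 193 and 181 bases were. The chr14 and chr7 stretches held 0 such bases. Both tandem-repeat sequences can be read by eye: the chr9 peak matched itself at 80% of bases when shifted by 31 bp, and the chr4 peak at 77.2% when shifted by 44 bp. Gains and losses were thus found both in repeated and in single-copy DNA.

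Short intergenic peaks carried about 2-fold more S9.6 signal in Kmt5b sKO than in Ctrl MuSCs. The score is the signal summed over a peak and scaled by a Drosophila spike-in. Across the 3358 peaks, the 3 Ctrl libraries had median scores of 32, 30 and 31, and the 3 Kmt5b sKO libraries of 63, 64 and 61. Every Kmt5b sKO library lay above every Ctrl library, with means of 62.7 ± 1.53 and 31.0 ± 1.00 (SD, n = 3) and a ratio of 2.02. The mean score told the same, at 68.4 ± 1.38 against 34.0 ± 0.334 (SD, n = 3), a ratio of 2.01. In such bulk samples, hybrids in more cells and more hybrid per cell cannot be told apart. The ratio of medians was 1.46 for 7853 genic peaks of up to 2000 bp (short genic peaks), 1.61 for 700 intergenic peaks over 2000 bp (long intergenic peaks) and 1.38 for all 25815 tested autosomal peaks. Of the 3358 peaks, 1555 had a Ctrl mean of 30 or less and passed the limit only through their Kmt5b sKO scores. For these a gain was a condition of entry. Among the 1803 with a Ctrl mean over 30, peak medians were 38.3 in Ctrl and 72.3 in Kmt5b sKO. No ratio limited in this way was made for the other classes. Ctrl replicate 2 had the highest Ctrl median over all tested peaks, 70 against 60 and 61, but the lowest over the short intergenic peaks. With 3 libraries per genotype an exact permutation test of a single value cannot give a p under 0.1.

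The peaks also took a larger part of the library. They held 2.98%, 2.45% and 3.03% of the score over tested peaks in the 3 Ctrl libraries and 4.98%, 4.88% and 4.85% in the Kmt5b sKO libraries. This share does not depend on the spike-in, and the genotypes did not overlap. It was taken over all 3358 peaks, including those that passed the limit only through their Kmt5b sKO scores. Short genic peaks moved from 7.88% ± 0.268 to 10.5% ± 0.0832 (SD, n = 3) of the score, and long intergenic peaks from 1.72% ± 0.0992 to 2.37% ± 0.00890.

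**Figure D1:**
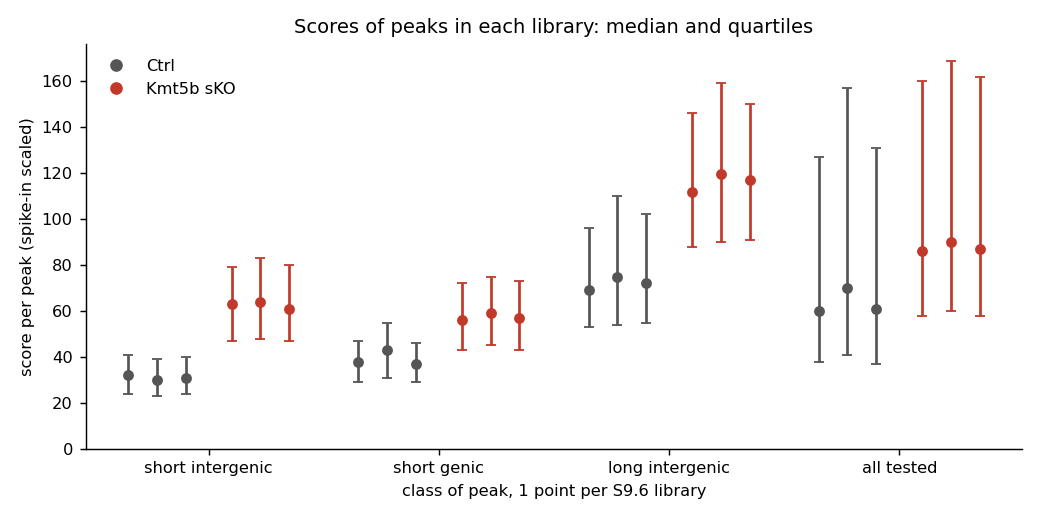
Score per peak in each S9.6 library for 4 classes of autosomal peaks, with 1 point per library at the median and bars from the lower to the upper quartile over the peaks of the class. Grey points are Ctrl and red points Kmt5b sKO. Short intergenic peaks had medians of 30 to 32 in Ctrl and 61 to 64 in Kmt5b sKO, the widest relative gap of the 4 classes shown. Among them, 1555 with a Ctrl mean of 30 or less entered only through their Kmt5b sKO scores.

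Each peak was then tested with limma on log2(score + 1), with adjustment over all 25815 tested autosomal peaks. Calls required a fold change over 1.5 and an adjusted p under 0.1. Of the 3358 short intergenic peaks, 2747 (81.8%, Wilson 95% interval 80.5 to 83.1, counting error only) were called higher in Kmt5b sKO, where 32.9% of all tested peaks were. Only 6 were called lower, 0.179% beside 0.883% of all tested peaks. Short genic peaks were called higher in 3636 cases (46.3%), long intergenic peaks in 397 (56.7%) and genic peaks over 2000 bp in 1704 of 13904 (12.3%). The median log2 fold change of the short intergenic peaks was 0.99, with quartiles of 0.75 and 1.22, against 0.35 over all tested peaks, 0.58 over short genic and 0.67 over long intergenic peaks. Scores of all 3 Kmt5b sKO libraries exceeded all 3 Ctrl scores at 2682 peaks (79.9%), beside 41.5% of all tested peaks, and lay below them at 7, beside 3.81%. No test of the classes against each other was made.

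How far these counts reach depends on the scale. When each library was centred on its median peak, the median of all tested peaks moved from 0.35 to -0.11 and 1192 short intergenic peaks (35.5%) were called higher, where 10.3% of all tested peaks were, with 24 called lower, beside 11.9% of all tested. With quantile normalization the calls were 748 higher (22.3%, beside 8.02% of all tested) and 33 lower (beside 7.7%). Scaling each library to the same total gave 2168 higher (beside 21.6%) and 11 lower (beside 3.12%), and testing against the median fold change of all tested peaks 1541 higher (beside 14.1%) and 17 lower (beside 6.99%). The distance between the median of the short intergenic peaks and that of all tested peaks was 0.64 on the log2 scale under the spike-in scaling, which centring cannot change, and 0.43 under quantile normalization. The level limit in the rule uses both genotypes, so a peak that was low in Ctrl could enter through its Kmt5b sKO scores. That was so for 1555 peaks, whose Ctrl mean was 30 or less. Among the 1803 with a Ctrl mean over 30 the median log2 fold change was 0.89 and 1404 (77.9%) were called higher. In a fit limited to peaks with a Ctrl mean over 30, 1379 of 1806 were called higher, beside 25.5% of the peaks tested there, and 6 lower, beside 0.968%. With the variance of each peak alone, 1751 were called higher (beside 21.1%) and 0 lower (beside 0.291%), and with a minimum fold change of 2 instead, 1649 (beside 14.2%) and 1 (beside 0.0581%). The table does not show in which libraries a union peak had been called.

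The share of short intergenic peaks called higher varied little with peak length, whereas among genic peaks it fell. Peaks come in steps of 200 bp, and the median length was 1200 bp. Of 369 intergenic peaks of 600 bp, 78.3% were called higher, and of 209 peaks of 2000 bp, 84.2%. The short genic peaks fell from 66.4% of 372 at 600 bp to 29.1% of 1104 at 2000 bp. Per kb of peak, median Ctrl scores of intergenic and genic peaks were 32.9 and 34.6 for 800 bp and 23.2 and 26.3 for 2000 bp. The Kmt5b sKO scores separated with length, from 79.4 and 76.1 per kb at 600 bp to 44.2 and 34.6 at 2000 bp for intergenic and genic peaks. The 8 intergenic peaks of 200 bp and 49 of 55 peaks of 400 bp were called higher. Median Ctrl scores at 600 bp were 23.7 for intergenic and 24 for genic peaks, under the level limit. At 2000 bp they were 46.3 and 52.7. For most peaks of 600 bp a gain was thus a condition of entry. With a Ctrl mean over 30, the intergenic shares were 82.1% of 39 at 600 bp and 83.2% of 197 at 2000 bp. Genic peaks were not split by length in that way.

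**Figure D2:**
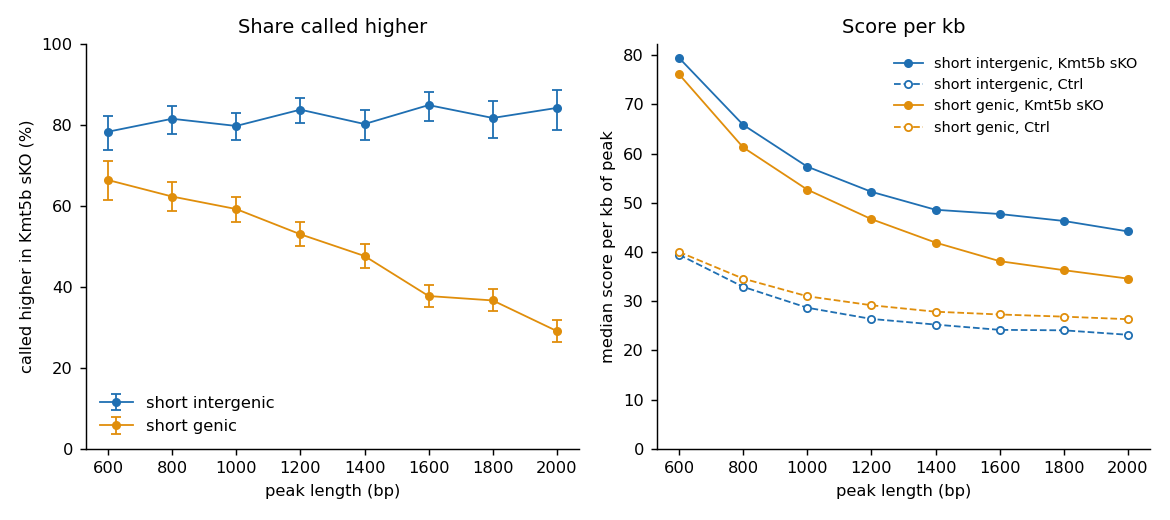
Left, share of peaks called higher in Kmt5b sKO (%) by peak length (bp) for short intergenic (blue) and short genic (orange) peaks, with Wilson 95% intervals as bars. Right, median score per kb of peak in Kmt5b sKO (filled points, solid lines) and Ctrl (open points, dashed lines). The intergenic share stays between 78.3% and 84.9% from 600 to 2000 bp while the genic share falls from 66.4% to 29.1%.

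The highest scores belonged to a few repeat-rich peaks that were strong in both genotypes. At chr9:124256200-124257999 (upeak-15883), the tandem array shown above, scores were 627, 833 and 818 in Ctrl and 2032, 2012 and 1925 in Kmt5b sKO. The log2 fold change there came to 1.40 (SE 0.13, limma adjusted p 6.8e-23). The genotypes did not overlap, and the lowest Kmt5b sKO score was far above the highest Ctrl score. The GC-rich array at chr4:118547000-118548999 (upeak-6950, 61.2% GC), which lay 2956 bp upstream of Tmem125, a gene of a transmembrane protein, had 227, 486 and 352 in Ctrl and 973, 1035 and 1030 in Kmt5b sKO. It gave the smallest adjusted p of all short intergenic peaks, 9.9e-26 in limma, at a log2 fold change of 1.58 (SE 0.14). Ctrl libraries differed by more than a factor of 2 here while Kmt5b sKO libraries were close together.

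Another 4 of the strongest peaks behaved alike. The peak at chr3:8244600-8246599 (upeak-4422), far from its nearest coding gene Stmn2, a regulator of neuronal microtubules, scored 436, 571 and 509 in Ctrl and 1130, 1157 and 1082 in Kmt5b sKO (log2 fold change 1.16). At chr12:74803800-74805199 (upeak-19711), downstream of the potassium channel gene Kcnh5, scores were 321, 464 and 389 against 1152, 1145 and 967 (log2 fold change 1.48). At chr12:3109800-3110599 (upeak-19157), 136.8 kb from the small GTPase gene Rab10, they were 295, 425 and 317 against 1029, 956 and 842 (log2 fold change 1.46). The peak at chr2:98664800-98665399 (upeak-3334), with 232, 335 and 263 against 784, 765 and 682 (log2 fold change 1.44), was 717 bp downstream of the predicted gene Gm10801 and matched itself at 57.1% of bases when shifted by 120 bp. In all 4 the lowest Kmt5b sKO library was well above the highest Ctrl library, and limma adjusted p ranged up to 8.9e-15. Soft-masked (repeat) sequence made up 21.5% to 61.9% of them.

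The largest relative gains were found at weaker peaks, mostly in 2 stretches of multi-copy DNA. The 8 peaks with the largest gains had Ctrl means of 11 to 26, so each passed the level limit only through its Kmt5b sKO scores and a gain was a condition of entry. The largest was at chr5:14956000-14956599 (upeak-7838), with 13, 16 and 14 in Ctrl and 72, 94 and 69 in Kmt5b sKO, or 2.36 on the log2 scale (SE 0.37, limma adjusted p 1.9e-08). About 500 kb away, chr5:15457800-15458999 (upeak-7849) rose from 25, 21 and 32 to 112, 146 and 138 (log2 fold change 2.31, SE 0.25, limma adjusted p 2.2e-17). At both peaks the 3 Kmt5b sKO libraries were several times above any Ctrl library. The third on this chromosome, chr5:14961600-14962399 (upeak-7839), had a Ctrl score as low as 4, beside 16 and 22, and 78, 58 and 47 in Kmt5b sKO. In these 3 peaks 56.2% to 79.2% of sampled 32-base words occurred elsewhere in the assembly as well.

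Together, 10 short intergenic peaks lay on chr5 between 14 and 16 Mb, next to predicted genes and Speer4e, a member of a rodent gene family with testis expression. All 10 were called higher, with log2 fold changes of 1.40 to 2.36 and multi-copy shares of 56.2% to 87.5%. Between 3 and 8 Mb of chr14, where the nearest coding genes are all predicted genes, all 17 peaks were called higher, at a median of 1.87 on the log2 scale and with multi-copy shares of 62.5% to 100%. These included chr14:4079800-4080199 (upeak-21618, 10, 8 and 15 against 46, 62 and 50), chr14:6904200-6905799 (upeak-21638, 19, 21 and 29 against 123, 98 and 93) and chr14:6964400-6965399 (upeak-21640, 13, 19 and 8 against 73, 53 and 54), all with log2 fold changes of 2.15 to 2.19. The median Ctrl mean was 22.0 in the chr5 and 23.0 in the chr14 stretch, under the level limit, so for most of these peaks too a gain was a condition of entry. Both stretches were singled out after their values were seen. The authors kept uniquely aligned reads, so copied DNA contributed only reads that could be placed at 1 site. The part of this in the result was not tested.

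The other 2 of the 8 largest gains, which also entered only through their Kmt5b sKO scores, lay where most sampled words were single-copy. The peak at chr14:112834800-112835599 (upeak-22541), 2644 kb from any genic peak and with 12.5% of sampled words copied, had 8, 14 and 14 in Ctrl and 43, 76 and 55 in Kmt5b sKO (log2 fold change 2.18, SE 0.46, limma adjusted p 4.9e-05). At chr3:125754800-125756599 (upeak-5619), 25.9 kb downstream of Ndst4, an enzyme gene of heparan sulfate synthesis, and with 38.9% of sampled words copied, scores were 25, 10 and 21 against 76, 90 and 85 (log2 fold change 2.19). In both, the highest Ctrl score was below the lowest Kmt5b sKO score. Over the 1179 short intergenic peaks with under 10% copied words, 933 (79.1%) were called higher, beside 32.9% of all tested peaks. The median log2 fold change was 0.99, the same as over all 3358. The median Ctrl mean of the 1179 was 31.0, close to the level limit. Those that entered only through their Kmt5b sKO scores were not left out.

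Of the 6 peaks called lower, 3 lay within 15 kb of each other on chr8, in multi-copy DNA upstream of the zinc finger gene Zfp709. At chr8:71819400-71820399 (upeak-13388) scores were 31, 55 and 38 in Ctrl and 18, 12 and 27 in Kmt5b sKO, or -1.11 on the log2 scale (SE 0.45, limma adjusted p 0.037). At chr8:71816200-71817199 (upeak-13387) they were 87, 69 and 84 against 25, 42 and 65, and at chr8:71805800-71807199 (upeak-13386) 65, 73 and 94 against 46, 51 and 55. The genotypes were separate at all 3, though by 4 score units at the first and second. Among the 7 short intergenic peaks between 71 and 72 Mb of chr8, 1 was called higher.

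The other 3 lower peaks were close to genes. Both chr2:104424600-104425999 (upeak-3383, 38, 63 and 42 against 26, 21 and 35), 482 bp downstream of the kinase gene Hipk3, and chr7:36774000-36775799 (upeak-11486, 45, 79 and 58 against 32, 41 and 27), 447 bp downstream of Tshz3, a zinc finger homeobox gene, followed a gene end. Their log2 fold changes were -0.78 (limma adjusted p 0.070) and -0.83 (limma adjusted p 0.019), and the genotypes were narrowly separate. At chr13:48972400-48973799 (upeak-20828), 4383 bp upstream of Fam120a, scores of 41, 73 and 43 against 13, 36 and 41 touched (log2 fold change -0.88, limma adjusted p 0.030). At 4 of the 6 peaks called lower, Ctrl replicate 2 had the highest score. Without that library 3 short intergenic peaks were called lower, and these 4 were not among them. Of the 6 calls, only that at upeak-13387 was kept whichever library was left out. The call at upeak-13386 was lost without Ctrl replicate 3 (limma adjusted p 0.30) and without Kmt5b sKO replicate 1 (limma adjusted p 0.11).

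**Figure D3:**
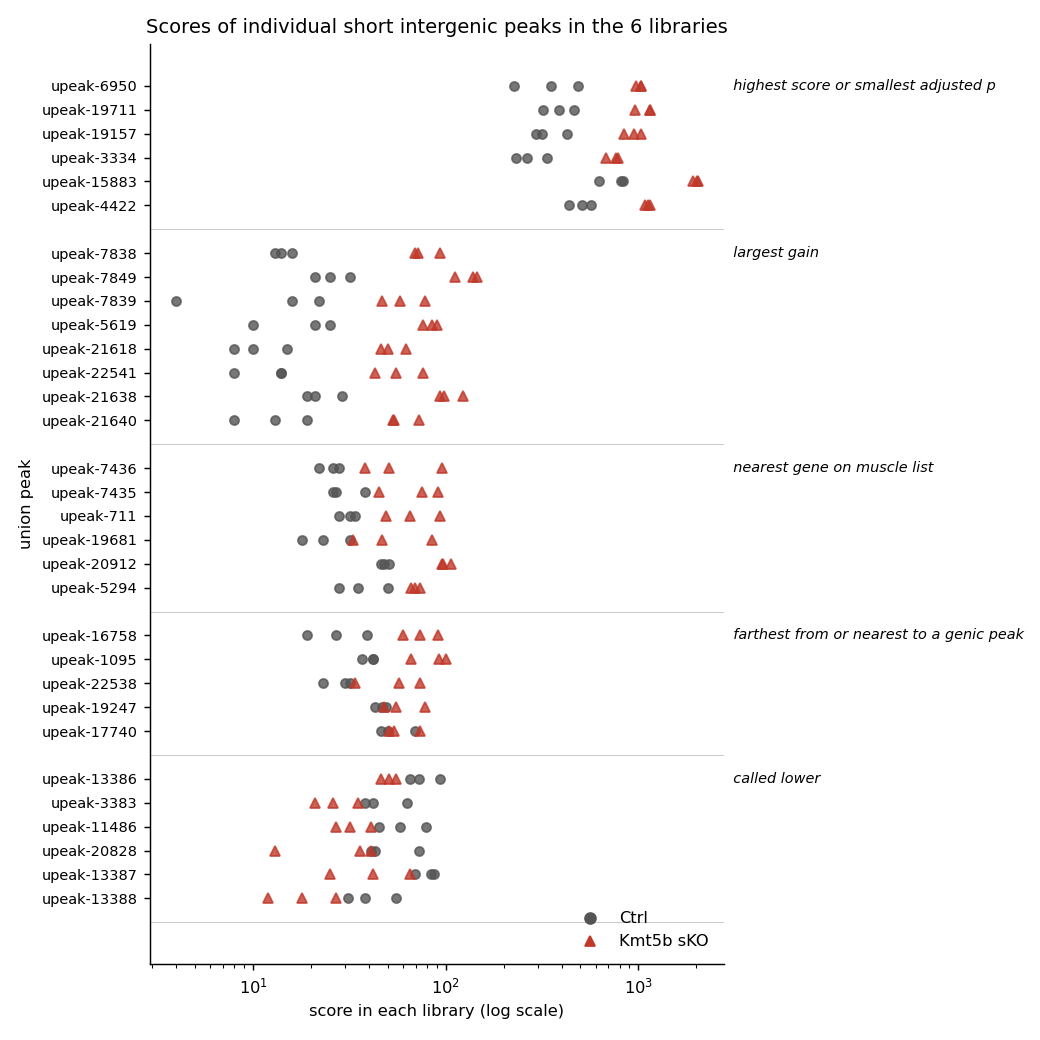
Score in each of the 6 libraries (log axis) for individual short intergenic peaks, 1 line of points per union peak, with Ctrl as grey circles and Kmt5b sKO as red triangles. From the top, the groups are peaks with the highest score or smallest adjusted p, the largest gains, peaks whose nearest coding gene is on the muscle stem cell list, peaks farthest from or nearest to a genic peak, and the 6 peaks called lower. Triangles lie to the right of all circles in the first 2 groups and to the left in 5 of the 6 peaks called lower.

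Short intergenic peaks mostly lay far from genic peaks. The median distance, edge to edge, to the nearest autosomal genic union peak was 91.3 kb, with quartiles of 21.2 and 356.8 kb and a maximum of 4422.2 kb. Only 482 peaks (14.4%, Wilson 95% interval 13.2 to 15.6) were within 10 kb of a genic peak, beside 291 of 700 long intergenic peaks (41.6%). A short genic peak was a median of 6.4 kb from the next genic peak, and 59.5% were within 10 kb. The median distance from one short intergenic peak to the next was 156 kb, and 12.6% had another within 10 kb.

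The share called higher was larger in the farther distance classes. It was 55.1% of 89 peaks within 1 kb of a genic peak, 62.1% of 195 at 1 to 5 kb and 72.7% of 198 at 5 to 10 kb. It went on to 77.2% of 836 at 10 to 50 kb, 81.5% of 410 at 50 to 100 kb, 87.1% of 1028 at 100 to 500 kb and 92.9% of 602 beyond 500 kb. The Ctrl median fell from 41.3 to 28.7 across these classes while the Kmt5b sKO median stayed between 60.5 and 63.7, and the median log2 fold change went from 0.69 to 1.10. Peaks that entered only through their Kmt5b sKO scores lay farther out, at a median of 146 kb against 63.4 kb for those with a Ctrl mean over 30. In the fit limited to a Ctrl mean over 30, the shares in the 7 classes were 51.3% of 76, 58.6% of 140, 64.2% of 134, 73.0% of 488, 74.4% of 215, 83.3% of 503 and 94.8% of 250. The Ctrl median fell from 43.0 to 36.3 there and the Kmt5b sKO median rose from 65.8 to 76.2. The share rose with distance among short genic peaks too, from 23.9% of 1468 to 83.7% of 123, and was lower than that of the short intergenic peaks in each of the 7 distance classes. Among long intergenic peaks it rose from 23.3% of 86 within 1 kb to 89.3% of 121 at 100 to 500 kb and 100% of 45 beyond. Beyond 100 kb the high share was thus not particular to short intergenic peaks.

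GC content moved with the distance, from a median of 43.4% within 1 kb to 35.2% beyond 500 kb. Over all short intergenic peaks, the rise in calls was present on both sides of the median GC content. These include the peaks that entered only through their Kmt5b sKO scores, for which a gain was a condition of entry and which lay farther out. A split by GC content without them was not made, so how far the rise holds there was not tested. Among peaks of lower GC content the share called higher was 76.2% of 101 within 10 kb and 89.7% of 1157 beyond 100 kb, and among peaks of higher GC content 62.2% of 381 and 87.9% of 473. Peaks whose nearest genic peak was itself called higher were called in 1048 of 1214 cases (86.3%), and those whose nearest genic peak was tested and not called higher in 1446 of 1848 (78.2%). The groups also differed in distance, at medians of 147.2 and 58.5 kb. Where the nearest genic peak was not tested, 253 of 296 (85.5%) were called higher, at a median of 259.6 kb. A link between neighbouring peaks was not tested.

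**Figure D4:**
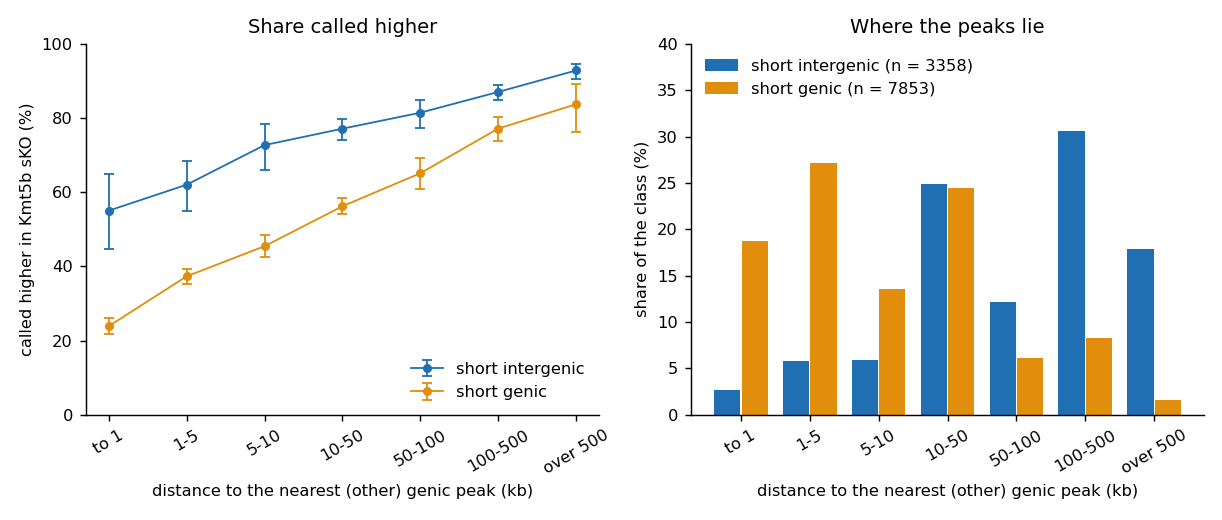
Left, share of peaks called higher in Kmt5b sKO (%) by distance to the nearest genic peak (kb), with Wilson 95% intervals, for short intergenic (blue) and short genic (orange) peaks; for genic peaks the distance is to another genic peak. Right, share of each class (%) in each distance class, whose widths are unequal. Short intergenic peaks go from 55.1% within 1 kb to 92.9% beyond 500 kb, and lie above short genic peaks at each distance.

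Single peaks at the 2 ends show the spread. The 3 peaks nearest to a genic peak were each 0.2 kb from it. Of these chr10:80290000-80291599 (upeak-16758), upstream of the ribosomal protein gene Rps15, was called higher with scores of 19, 27 and 39 against 74, 91 and 60. The peaks beside Gen1, a Holliday junction resolvase gene, and Hnrnph1, a splicing regulator gene, were not. At chr12:11236400-11237799 (upeak-19247, by Gen1) scores were 43, 49 and 47 against 55, 78 and 48, and at chr11:50387200-50388799 (upeak-17740, by Hnrnph1) 46, 69 and 50 against 74, 54 and 51, and the genotypes overlapped at both. Over 4 Mb from any genic peak, chr14:111056600-111057599 (upeak-22538) had 32, 23 and 30 against 74, 34 and 57 (log2 fold change 0.88, limma adjusted p 0.026). That call was lost in 6 of 19 other fits, among them the fit without Kmt5b sKO replicate 1 (limma adjusted p 0.18) and each of the other scalings of the libraries. At chr1:111369200-111370599 (upeak-1095), 391.6 kb upstream of the cadherin gene Cdh19, scores were 42, 37 and 42 against 92, 101 and 66, with no overlap (log2 fold change 1.06, limma adjusted p 0.00026). The Ctrl mean was 28.3 both at upeak-16758 and at upeak-22538. Both thus passed the level limit only through their Kmt5b sKO scores, and a gain was a condition of entry.

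At short range the shares differed between the sides of the nearest coding gene, which was not tested. Within 1 kb downstream of a coding gene, 49 of 113 peaks (43.4%) were called higher and 2 lower, and the median change was 0.52 on the log2 scale. Within 1 kb upstream, 63 of 79 (79.7%) were called higher and the median was 0.94. At 1 to 5 kb the shares were 59.3% of 273 downstream and 77.8% of 261 upstream, and at 5 to 20 kb they were 81.1% of 338 and 82.2% of 404. The downstream peaks within 1 kb had a Ctrl median of 39.3 and a Kmt5b sKO median of 55.0, while upstream peaks had 34.0 and 64.0. With a Ctrl mean over 30, the shares within 1 kb were 38.5% of 91 downstream and 69.2% of 52 upstream. Beyond 100 kb, 87.9% of 504 downstream and 91.7% of 575 upstream peaks were called higher. In all, 1775 peaks lay upstream and 1583 downstream of their nearest coding gene, at a median of 29.3 kb, and 2349 different genes were involved. In the GENCODE annotation 48 peaks overlapped a gene that the table had not assigned.

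Genes of muscle stem cell identity and myogenesis were looked at as a list of 37 genes. The cell type was first compared with its markers: 5 of 10 muscle stem cell marker genes carried a union peak (Pax7, Myod1, Itga7, Sdc4 and Des), as did 1 of 3 endothelial genes (Pecam1) and none of 3 blood, 3 fibro-adipogenic and 3 smooth muscle or pericyte genes. R-loop signal is not expression, so this describes where hybrids were found. Of the 37 genes, 13 had a short intergenic peak within 100 kb, 19 peaks in all. Of these, limma called 14 (73.7%) higher and 0 lower, beside 32.9% and 0.883% of all tested peaks and 81.8% and 0.179% of all short intergenic peaks. Their median log2 fold change was 0.66, below the 0.99 of all short intergenic peaks. For 10 peaks the nearest coding gene was on the list, and 9 of them were called higher.

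Pax7, the transcription factor that defines MuSCs, had 2 such peaks upstream. At chr4:139841800-139842999 (upeak-7435), 8272 bp upstream, scores were 27, 38 and 26 against 45, 75 and 91, and at chr4:139848600-139850599 (upeak-7436), 15072 bp upstream, 22, 28 and 26 against 51, 38 and 96. Genotypes were separate at both, Kmt5b sKO libraries varied by a factor of 2 or more, and both log2 fold changes were 1.15 (limma adjusted p 0.00079 and 0.0032). At the fibroblast growth factor receptor gene Fgfr4, chr13:55181000-55182399 (upeak-20912) had tight values of 51, 48 and 46 against 106, 96 and 97 (log2 fold change 1.03, limma adjusted p 0.00011). The peak at chr3:98154200-98155199 (upeak-5294), 3839 bp from the receptor gene Notch2, had 50, 28 and 35 against 74, 69 and 66. At 80.5 kb from Pax3, the relative of Pax7, chr1:78019600-78020799 (upeak-711) had 32, 34 and 28 against 94, 65 and 49. Only at chr12:73096600-73097599 (upeak-19681), 2010 bp from the homeobox gene Six4, did the genotypes nearly meet, with 32, 18 and 23 against 33, 85 and 47. All 6 of these calls were lost with quantile normalization. The call of upeak-7436 was also lost without Kmt5b sKO replicate 3 (limma adjusted p 0.13) and that of upeak-19681 without Kmt5b sKO replicate 2 (limma adjusted p 0.19). With the variance of each peak alone, the calls of upeak-7435, upeak-7436 and upeak-19681 were lost. Ctrl means were 25.3 at upeak-7436 and 24.3 at upeak-19681, so both passed the level limit only through their Kmt5b sKO scores.

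Short intergenic peaks were present on all 19 autosomes, and their number followed chromosome length in part (Spearman rho 0.74, Pearson r 0.78 over 19 chromosomes, as a description). Chr1 held 274, chr4 260 and chr3 242. Per Mb the density over all autosomes was 1.36, or 2.72 per Mb outside GENCODE genes. Chr17 was densest at 1.92 per Mb, followed by chr11 at 1.76 and chr4 at 1.66, and chr14 and chr7 were sparsest at 1.02 and 1.08. The density did not track that of coding genes closely (Spearman rho 0.24). Relative to all tested peaks of a chromosome, chr3 was highest at 17.0 per 100 and chr2 lowest at 9.21 per 100.

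The genotype difference was spread over all chromosomes. The share called higher ranged from 74.3% on chr15 to 86.8% on chr3, while among all tested peaks it ranged between 26.9% on chr2 and 37.4% on chr17. Median log2 fold changes were 0.91 to 1.04 on 18 chromosomes and 1.17 on chr14, which holds the multi-copy stretch described above. The strongest short intergenic peak of the densest chromosome, chr17:36230600-36231799 (upeak-25500), lay 23846 bp downstream of Rpp21, a ribonuclease P subunit gene, and had 86, 128 and 118 against 210, 262 and 217 (log2 fold change 1.06). That of the sparsest, chr14:7000000-7001199 (upeak-21642), had 50, 70 and 55 against 195, 167 and 193 (log2 fold change 1.66). Neither showed overlap between the genotypes.

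**Figure D5:**
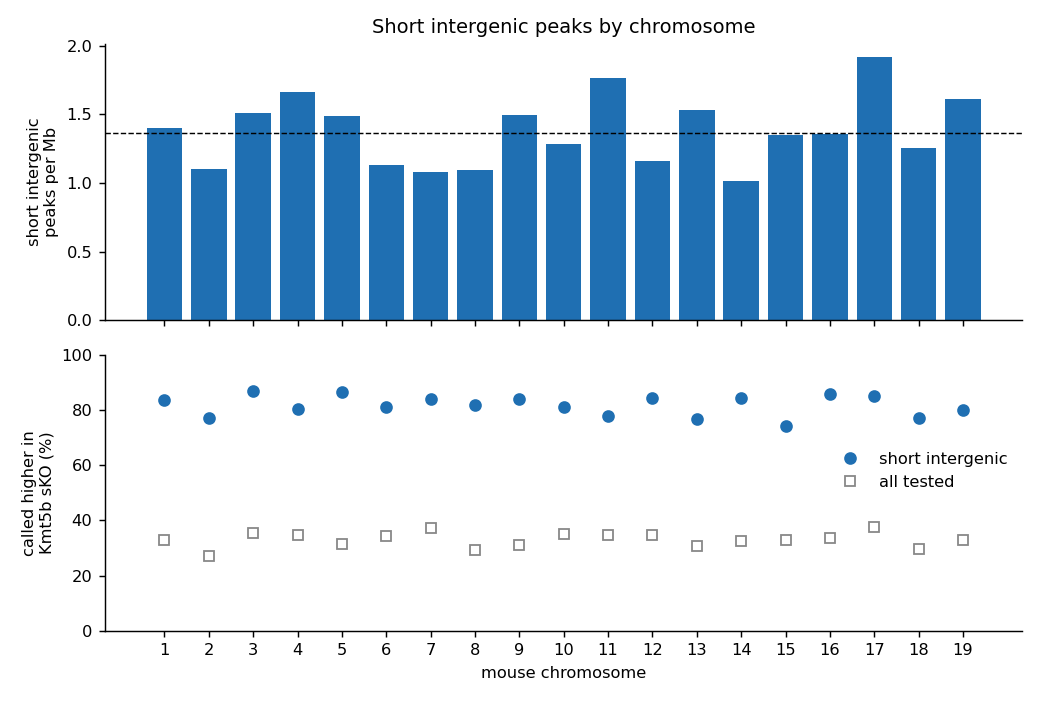
Top, short intergenic peaks per Mb on each mouse autosome, with the density over all autosomes (1.36 per Mb) as a dashed line. Bottom, share called higher in Kmt5b sKO (%) for short intergenic peaks (filled circles) and for all tested peaks of the chromosome (open squares). Density varies from 1.02 to 1.92 per Mb, and the share called higher stays between 74.3% and 86.8%.

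Peaks were uneven along the chromosomes. Of 2473 windows of 1 Mb, 1557 (63.0%) held at least 1 short intergenic peak, and 112 held 5 or more. The fullest was the window of chr4 that starts at 147 Mb, with 24 peaks, of which 22 were called higher, among zinc finger genes such as Zfp981 and Zfp985. The next, chr13 from 12 to 13 Mb by the prolactin family genes Prl2c2 and Prl2c3, had 18 peaks with 16 called higher. Median multi-copy shares were 45.8% and 56.5% in these windows, against 16.7% over all short intergenic peaks, and their median log2 fold changes of 1.05 and 1.07 were near the 0.99 of all.

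By sequence, short intergenic peaks were richer in repeats and poorer in GC than the classes most like them. Soft-masked bases made up a median of 55.5% of a peak, against 35.1% in short genic and 42.0% in long intergenic peaks. Median GC content was 39.3%, against 41.6% and 42.3%. CpG dinucleotides were at 5.0 per kb, against 8.0 in short genic peaks. A run of the letters CACACACACACACACA was present on either strand in 384 peaks (11.4%), beside 8.58% of short genic peaks weighted to the same lengths, and GAGAGAGAGAGAGAGA in 263 (7.83%), beside 5.49%. The letters GAAGAAGAAGAAGAA were present in 126 (3.75%, beside 2.19%) and GGGGGGGG in 196 (5.84%, beside 5.63%), and TTAGGGTTAGGG, the telomere repeat, in 5 (0.149%, beside 0.141%). No motif contains another. Of peaks with the CA, GA and GAA runs, 86.5%, 85.6% and 84.9% were called higher, and of those with the G run 76.0%.

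Repeat content went with the share called higher in steps. With up to 20% of bases soft-masked, 87 of 149 peaks (58.4%) were called higher, and between 60% and 80%, 766 of 890 (86.1%). GC content went the other way, from 87.0% of 741 peaks at up to 35% GC to 67.3% of 327 at 45% to 50% GC. In the fit limited to a Ctrl mean over 30 these shares were 43.4% of 99 and 83.6% of 476 for the repeat classes, and 86.9% of 313 and 60% of 220 for the GC classes. Across classes of multi-copy share the called share moved less, from 79.2% of 1268 peaks to 85.9% of 227. It also rose with the level of the peak, from 68.8% of 1007 peaks with a mean score of 30 to 40 to all 40 with a mean over 100. The median log2 fold change differed little, from 0.98 at a mean score of 30 to 40 to 1.02 at 75 to 100, and was 1.14 over 100. Fitted alone, tested peaks over that level were called higher in 12.3% and lower in 0.849% of cases. There were 98 peaks (2.92%) that matched themselves at 60% of bases or more under a shift of 10 to 400 bp, and 85 of them were called higher.

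The limits of the rule cut through values that change gradually. The 2 peaks with the lowest mean score inside it had scores of 30, 25 and 24 against 23, 38 and 41, and of 22, 22 and 18 against 46, 21 and 52. The 2 just outside had 26, 30 and 19 against 28, 48 and 29, and 15, 21 and 20 against 34, 62 and 28. At the length limit, 209 intergenic peaks of 2000 bp had a median log2 fold change of 0.96 and 140 peaks of 2200 bp one of 0.87. The strongest just beyond, chr13:3372800-3374999 (upeak-20322), scored 423, 501 and 459 against 1050, 985 and 928.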

How the data were processed

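DRIP-seq of 3 Ctrl and 3 Kmt5b sKO MuSC cultures was analysed, and the 1 input library per genotype was not used. Sample labels gave the groups, and the study calls the libraries biological replicates. The limma p-values rest on a spread between libraries pooled over peaks of similar level, not on that of the single peak. According to the study's methods, reads were aligned to mm10 (GRCm38), duplicates were removed, peaks were called against input with Epic2, blacklisted regions were removed and peaks of all samples were unified. The submitters' processing notes name STAR (version 2.7.3a), SICER (0.0.41), Trimmomatic (0.39) and Picard (2.21.7). The deposited value of a peak is a score: the authors summed the signal over the peak, scaled it by reads of the Drosophila spike-in, and the values are rounded to whole numbers. The table held 0 columns of other samples. Scores are not read counts, so no count model was used, the depth behind a score is unknown and single scores carry no interval. Summed scores ranged from 3893768 to 4930261 per library.

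Autosomal peaks with a mean score over 30 were fitted with limma 3.58.1 (R 4.3.3) by lmFit and a trended eBayes on log2(score + 1), two-sided, with Benjamini-Hochberg adjustment over 25815 peaks. Calls used the study's thresholds, a fold change over 1.5 and an adjusted p under 0.1. Fold changes are on the log2(score + 1) scale and understate the change of low peaks. With infinite prior degrees of freedom, the trend alone set the variance of each peak. The fit was tested on simulated scores with 1 spread shared by all peaks, unlike the trended variance of the data. It called 137 of 200 peaks changed by 1 on the log2 scale (68.5%) and 17 unchanged peaks. With no change simulated, 0 peaks were called. Coordinates are printed as in the table, where starts are multiples of 200, so a browser may show the first base 1 position later. Sequence, GC content and soft-masked share came from the RefSeq GRCm38 assembly, and nearest genes from GENCODE vM21. The multi-copy share is the percentage of 32-base words, sampled every 50 bp, with another exact copy in the assembly, alternate loci left out. The scripts used numba 0.67.0, scipy 1.17.1, matplotlib 3.10.9, numpy 2.4.6 and pandas 2.3.3 under Python 3.11.15. At most 2.93% of peaks had the same score in any pair of libraries.

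Members, lists and tests were chosen with earlier results of these data known. Peaks were named by rule: of called peaks with no overlap between genotypes, the 8 with the largest gain and the 8 with the largest loss (5 qualified), the 5 highest scores, the 5 smallest adjusted p, the 3 farthest from and 3 nearest to a genic peak, the strongest of the densest and sparsest chromosome, the peaks at each limit, and 6 called peaks nearest to a gene of the muscle list. One of the 3 farthest peaks is not reported here. The remaining peak called lower was named after its values were seen. Alternatives were other pseudocounts, level and length limits, scalings, variance models, thresholds, definitions of intergenic and of distance, a replicate block and leaving out each library. The variance of each peak alone, the multi-copy limit, fold changes relative to their median and classes of peaks with a Ctrl mean over 30 were added after seeing the data. Enhancer marks, nascent transcription and methylation marks were not analysed here.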

Additional observations from a re-analysis of the deposited data

Results flagged for a closer look

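Short intergenic peaks outside the rule, which the comparisons above left out, also had more signal in Kmt5b sKO. The 856 autosomal peaks with a mean score of 30 or less had library medians of 16, 14 and 14 in Ctrl and 31, 29 and 28 in Kmt5b sKO, a ratio of the mean medians of 2.0. In a fit with no level limit 416 of them (48.6%) were called higher and 2 lower, beside 33.5% and 0.894% of all peaks in that fit. On chrX, 63 short intergenic peaks with a mean score over 30 had medians of 19, 42 and 31 against 61, 55 and 60, a ratio of 1.91, and 50 were called higher when chrX and chrY were added to the fit, where 32.8% of all peaks were. On chrY, 14 such peaks had medians of 73, 2 and 47 against 104.5, 108.5 and 111.5, a ratio of 2.66, and 13 were called higher. The Ctrl libraries varied more on these chromosomes than on the autosomes, and Ctrl replicate 2 was the highest on chrX and the lowest on chrY. The chrY ratio of 2.66 thus includes a Ctrl library with a median of 2. Sample labels do not give the sex of the mice behind each library, and its part in the chrX and chrY values was not tested. The library medians of the genotypes did not overlap in any of the 3 sets. Peak by peak, all Kmt5b sKO scores exceeded all Ctrl scores at 420 of the 856, 44 of the 63 and 10 of the 14 peaks. A Ctrl mean over 30 was found at 31 of the 63 chrX peaks and 10 of the 14 chrY peaks. The others there passed the level limit only through their Kmt5b sKO scores, so a gain was a condition of entry for them. Among the 856 weaker autosomal peaks, 3 had a Ctrl mean over 30.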

How the results depend on the processing

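The direction of the short intergenic peaks held under each alternative tried, and the number of calls did not. The median log2 fold change, 0.99, was 0.79 with the same total per library, 0.53 with median centring, 0.42 with quantile normalization, 0.91 and 0.83 with pseudocounts of 5 and 10, 0.89 with a Ctrl mean over 30 and 1.14 with a mean score over 100. Peaks called higher, 2747, numbered 1192 with median centring, 748 with quantile normalization, 1541 against the median of all fold changes, 1751 with each peak's own variance and 1649 with a fold change over 2. With fewer peaks in the class they numbered 1379 of 1806 (Ctrl mean over 30), 40 of 40 (mean over 100), 1201 of 1493 (1000 bp or less), 1053 of 1369 (under 50% soft-masked) and 933 of 1179 (under 10% multi-copy). Peaks called lower, 6, numbered 11 with the same total, 24 with median centring, 33 with quantile normalization, 17 against the median, 2 at 1000 bp or less, 1 at a fold change over 2, and 0 with each peak's own variance and with a mean over 100. Short genic peaks called higher, 3636, numbered 2324 with the same total, 1036 with median centring, 615 with quantile normalization, 1459 against the median, 2077 with each peak's own variance, 1514 at a fold change over 2, 2293 with a Ctrl mean over 30, 46 with a mean over 100 and 1286 at 1000 bp or less. In each of these settings the share called higher was larger among short intergenic than among short genic peaks.

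Leaving out 1 library at a time gave 2314 to 2657 short intergenic peaks called higher, 3 to 8 called lower (beside 27.6% to 34.9% and 0.318% to 1.26% of all tested peaks), a median log2 fold change of 0.97 to 1.01 and 2846 to 3728 short genic peaks called higher. Replicate numbers did not pair the libraries (correlations of same-numbered deviations -0.01, 0.01 and -0.03), and a replicate block gave 2737 short intergenic peaks higher, 6 lower and 3614 short genic peaks higher. The median distance to a genic peak, 91.3 kb, was 108.4 kb at 1000 bp or less, 77.8 kb at 3000 bp or less and 29.3 kb for the 40 peaks with a mean over 100. The share within 10 kb, 14.4%, was 9.98% from centre to centre, 10.6% at 1000 bp or less, 16.9% at 3000 bp or less, 13.2% with no level limit and 25% with a mean over 100. The ratio of the highest to the lowest density of a chromosome, 1.88, was 8.73 with a mean over 100, and per 100 tested peaks the extremes were chr3 and chr2. Of 32 named peaks that were called, 17 kept their call in each fit that held them and at a fold change over 2, and none reversed. Of these 17, 9 were in neither the fit with a Ctrl mean over 30 nor that with a mean over 100. All 6 lower calls were lost with each peak's own variance. Those at chr2, chr7, chr13 and chr8:71819400 were also lost without Ctrl replicate 2, those at chr2, chr8:71819400 and chr8:71805800 without Ctrl replicate 3, those at chr13 and chr8:71805800 without Kmt5b sKO replicate 1, that at chr2 without Kmt5b sKO replicate 2, and that at chr8:71805800 with pseudocounts of 5 and 10. The spread is that of 3 libraries, and at low scores a small change in score is a large fold change.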
